A study of Mus musculus with 24 samples.

Results

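The subunits of the AMPA and NMDA receptors were measured by 23 of the 41174 non-control probes on the array, which name 10 of the 27827 entries in the files' gene name column: Gria1, Gria2, Gria3 and Gria4 for the AMPA receptor, and Grin1, Grin2a, Grin2b, Grin2c, Grin2d and Grin3a for the NMDA receptor. The members are every probe that the scanner files name for one of these genes, and 1 Grin2b probe carries the name only in the newer of the 2 annotations in the files. RNA of the hippocampus of 24 C57Bl/6 mice was hybridised, 1 mouse per array, to Agilent 1-colour arrays in 6 groups of 4. Young fear mice, aged 3 months, spent 3 min in a new chamber, got 1 foot shock there (0.7 mA, 2 s) and gave their hippocampi 1 h later, the protocol called contextual fear conditioning. Young control mice of the same age were handled and had no training. Old fear mice and old control mice, aged 16 months, had the same training or the same handling. Context mice, aged 3 months, had the chamber without the shock, and shock-context mice, aged 3 months, had the shock at once on entry and could explore only afterwards. Hippocampi of both of these groups were also taken 1 h later. The labels name no transgene or mutation. The study asked which hippocampal genes answer to associative learning and whether that answer changes with age.

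Glutamate released at an excitatory synapse opens AMPA receptors, tetramers of the proteins GluA1 to GluA4 encoded by the Gria genes, which carry the fast current. NMDA receptors pair the obligatory, glycine-binding GluN1 (Grin1) with glutamate-binding GluN2 subunits (Grin2a to Grin2d) or with GluN3A (Grin3a). Those of GluN1 with GluN2A or GluN2B pass calcium mainly when glutamate arrives while the membrane is already depolarised. In the hippocampus this calcium signal starts long-term potentiation, after which more AMPA receptors are held at the synapse.

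The 16 control and fear arrays belong to a first scan run on 4 slides, each slide holding 1 array of each of the 4 groups, and had 86.6 to 94.0% of their probes well above background and a 75th percentile of signal of 757 to 2137. The 8 context and shock-context arrays belong to a second run on 2 slides, with 75.5 to 81.7% and 3101 to 8369. Scan run and group cannot be told apart in any comparison between these 2 sets. Levels are log2 of the processed signal minus the 75th percentile of the same array, so a level of 0 is that percentile, and they are compared between arrays for 1 probe only, never between probes. A change was called where limma's adjusted p was below 0.05 over all 38762 probes tested. In the control and fear groups, arrays 1 and 2 often lay close together, as did arrays 3 and 4, with a median absolute log2 difference of 0.114 to 0.349, against 0.199 to 0.385 for the other pairs of arrays in a group. The fit counts 4 independent mice a group, so its p-values may be too small where such pairs are alike. Values with these pairs averaged are given where they end a call within the first run or the call of a probe named between the runs. For the smaller differences between the old and young responses, only the loss of the call is stated. None of 15 markers of hippocampal excitatory neurons was below background on every array of any group, but neither was any tested neocortex, striatum or choroid plexus marker, so this does not set the hippocampus apart from neighbouring tissue. Precision is limited by having 4 arrays a group.

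Of the 23 probes, 18 are named after RefSeq transcripts in the newer annotation and 5 after other transcripts. In all, 21 were well above background on all 24 arrays, and all 23 were tested. Grin1, Grin2a, Grin2c and Grin2d have 1 probe each, and the other 6 genes have several. Coordinates are those of build mm9 in the newer annotation of the files. Exon and untranslated-region boundaries were not used here. Probe sequences are shown for the members on which the comparisons turn and for those whose sequence bears on the reading of their signal. The Gria1 probe A_51_P498031 lies at chr11:57102930-57102989 on the plus strand and the Gria3 probe A_52_P179309 at chrX:39007367-39007426 on the plus strand. The capitals in both mark the longest run they share, 19 bases, within an overlap of 56 bases of which 43 are identical.
Gria1 A_51_P498031: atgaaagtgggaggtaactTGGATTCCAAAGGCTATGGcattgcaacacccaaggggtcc
Gria3 A_52_P179309: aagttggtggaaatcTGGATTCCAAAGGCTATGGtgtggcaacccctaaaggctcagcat
Whether either probe also binds the other transcript was not tested.

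The Grin1 probe A_52_P69292 lies at chr2:25151568-25151627 and the Gria4 probe A_52_P349182 at chr9:4502385-4502444, both on the minus strand. They are shown because the first carries one of the largest changes of the family and the second the widest spread.
Grin1 A_52_P69292: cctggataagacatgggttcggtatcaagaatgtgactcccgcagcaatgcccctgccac
Gria4 A_52_P349182: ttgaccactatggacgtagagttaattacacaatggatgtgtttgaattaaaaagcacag
A pair of Grin2b probes on the minus strand of chromosome 6 is shown because neither was called in young fear mice, while A_52_P367017 of the same gene, 438780 and 441892 bases away, was. The probe A_52_P248920 is at chr6:135682925-135682984, and for A_51_P265765 the file gives only an 11-base interval at chr6:135679813-135679823.
Grin2b A_51_P265765: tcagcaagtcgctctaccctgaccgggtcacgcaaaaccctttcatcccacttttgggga
Grin2b A_52_P248920: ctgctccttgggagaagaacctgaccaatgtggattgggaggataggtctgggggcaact
The Grin2d probe A_51_P157154, at chr7:53088243-53088302 on the minus strand, is shown for its base composition, and its capitals mark its longest run of G and C, 11 bases.
Grin2d A_51_P157154: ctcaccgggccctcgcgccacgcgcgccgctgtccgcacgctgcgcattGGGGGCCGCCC
It holds 81.7% G and C, against 23.3 to 55% in the other 22 member probes and a median of 41.7% over all tested probes, of which 7 (0.0181%) reach its share or more.

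One hour after training, subunit probes of young fear mice differed from those of young control mice in both directions. Of the 23 probes, 6 were called higher and 4 lower (43.5%), in a comparison in which 44.6% of all 38762 probes were called, 17.2% higher and 27.5% lower. The share of the family that was called is thus near that of the whole array. The higher probes were those of Grin1, Gria4 (a pair), Gria3 (a pair) and Gria2, and the lower ones those of Grin2b, Gria3, Grin2a and Gria1. By receptor, 5 of 12 AMPA receptor probes were higher and 2 lower, with a median log2 change of 0.42, and 1 of 11 NMDA receptor probes was higher and 2 were lower, with a median of -0.39. These counts take probes, not genes: 4 of the 12 are of Gria4 and 5 of the 11 are of Grin2b. By the probe of highest mean of each gene, Gria3 and Gria4 had positive changes and Gria1 and Gria2 negative ones. NMDA receptor genes also took both signs, and the median over these 10 probes was -0.03. The median change of all probes was -0.27 on this scale and moved to -0.08 with quantile normalization and -0.13 with median scaling. Of all calls on the array, 38.5% were higher, against 52.3% and 52.5% under those scalings.

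**Figure D1:**
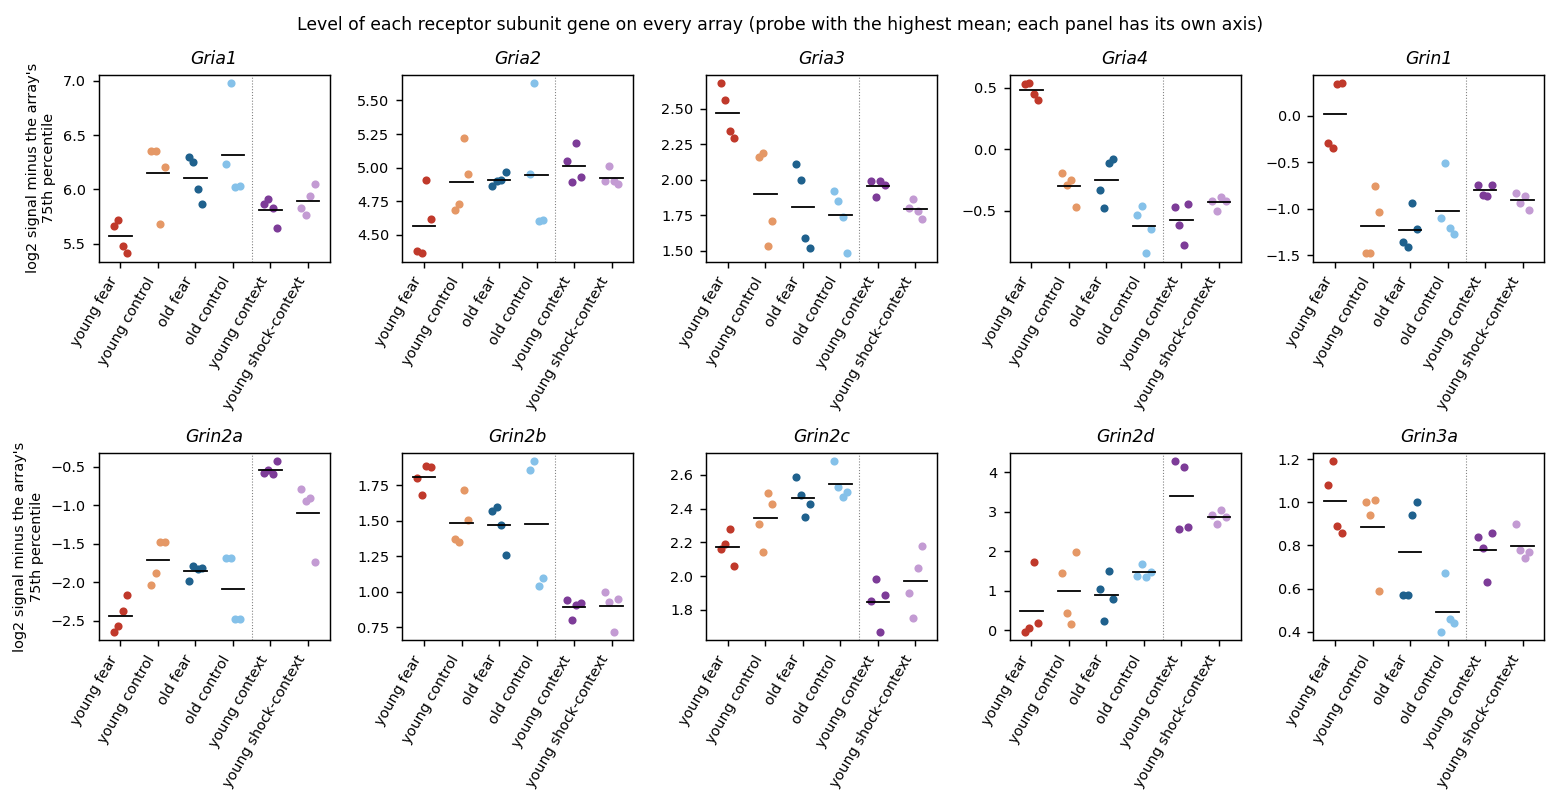
Level of each gene on every array, as log2 signal minus the 75th percentile of that array, read from its probe with the highest mean over the 24 arrays; points are single mice, lines are group means, each panel has its own axis, and the dotted line parts the 2 scan runs. All 4 young fear arrays lie above the arrays of the 5 other groups for Grin1, Gria3 and Gria4, and Grin2d of the context and shock-context groups lies above all arrays of the first run. The share of all probes set apart in these ways was not counted, and across the dotted line group and scan run cannot be told apart.

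Gria1 encodes GluA1, the subunit whose phosphorylation and insertion accompany potentiation. Its first probe, A_52_P39575 (chr11:57143457-57143516), had levels of 5.66, 5.72, 5.48 and 5.41 in young fear mice, against 6.35, 6.35, 5.68 and 6.21 in young control mice. The groups overlapped through a single control array, at 5.68, which lay below the young fear array at 5.72. The log2 change was -0.58 ± 0.18 (SE, n = 4 each; adjusted p = 0.0122). This call depended on scaling: the change was -0.13 with quantile normalization, -0.44 with median scaling, -0.01 with normexp background correction and 0.04 in the deposited values, and none of these passed. With array pairs averaged the adjusted p was 0.101. The second Gria1 probe, A_51_P498031, differed in sign and was not called (0.17 ± 0.18, adjusted p = 0.452).

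Gria2 encodes GluA2, which, once its RNA is edited, keeps the channel closed to calcium. The first probe, A_52_P575176 (chr3:80492452-80492511), had levels of 4.38, 4.36, 4.91 and 4.62 in young fear mice, against 4.68, 4.73, 5.22 and 4.95 in young control mice. These groups overlapped and the change did not pass (-0.33 ± 0.18, adjusted p = 0.136), although the young fear array was the lower on each of the 4 slides, with differences of -0.36 to -0.30. The sign turned to 0.07 with quantile normalization and 0.02 with normexp.
The probe A_52_P360995 (chr3:80509817-80509876), named after another transcript, lies 17365 bases from the first. Its levels were -3.03, -3.01, -2.47 and -2.80 in young fear mice, against -4.05, -4.20, -3.73 and -3.46 in young control mice. The groups did not overlap, and the change of 1.03 ± 0.17 corresponded to a 2.04-fold higher level (adjusted p = 4.24e-05). The third probe, A_52_P891243, was not called (0.26 ± 0.14, adjusted p = 0.125).

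Gria3 encodes GluA3, which assembles mostly with GluA2. Its first probe, A_52_P68221 (chrX:39031099-39031158), had levels of 2.68, 2.56, 2.34 and 2.29 in young fear mice, against 2.16, 2.19, 1.53 and 1.71 in young control mice. All young fear arrays lay above all young control arrays, and the level was 1.48-fold higher (log2 change 0.57 ± 0.15, adjusted p = 0.00416, or 0.105 with array pairs averaged). The second probe, A_52_P179309, read -0.50, -0.42, -0.70 and -0.68 in young fear mice, against -1.44, -1.39, -0.85 and -0.99 in young control mice. It too showed no overlap and a change of 0.60 ± 0.14 (adjusted p = 0.00172).
The third probe, A_52_P272364 (chrX:38965889-38965948), named after another transcript and 41478 and 65210 bases from the others, went the opposite way. It read -4.82, -4.27, -4.21 and -4.73 in young fear mice, against -3.91, -3.79, -3.39 and -3.81 in young control mice. The groups did not overlap, and the level was 1.72-fold lower (-0.78 ± 0.19, adjusted p = 0.00227, or 0.0502 with normexp). Gria3 thus had called probes of both signs.

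Gria4 encodes GluA4, the subunit with the fastest kinetics, abundant in interneurons. Its first probe, A_52_P279527 (chr9:4418375-4418434), had levels of 0.53, 0.54, 0.45 and 0.40 in young fear mice, against -0.19, -0.29, -0.25 and -0.47 in young control mice. The groups were far apart for their spread: the level was 1.72-fold higher (0.78 ± 0.10, adjusted p = 4.53e-06), and the young fear array was the higher on each of the 4 slides, by 0.70 to 0.87. The probe A_52_P153588 (chr9:4663303-4663362), 244928 bases away and named after another transcript, read -1.74, -1.77, -2.31 and -2.15 in young fear mice, against -2.69, -2.61, -2.58 and -2.90 in young control mice. It did not overlap between the groups and was 1.63-fold higher (0.71 ± 0.14, adjusted p = 0.000419).
The other 2 Gria4 probes were not called. A_52_P349182, whose sequence is given above, read -0.02, -0.12, -0.59 and -0.59 in young fear mice, against -1.34, -1.44, -2.79 and -1.57 in young control mice. Those groups did not overlap either, but the change of 1.46 carried an SE of 0.80 (adjusted p = 0.143), in a fit that pools the spread of 6 groups and in which 1 old control array of this probe stood at -7.26, not well above background. With normexp its adjusted p was 0.0217. A_51_P501735, only 1767 bases from the first probe, had the opposite sign (-0.50 ± 0.25, adjusted p = 0.113).

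**Figure D2:**
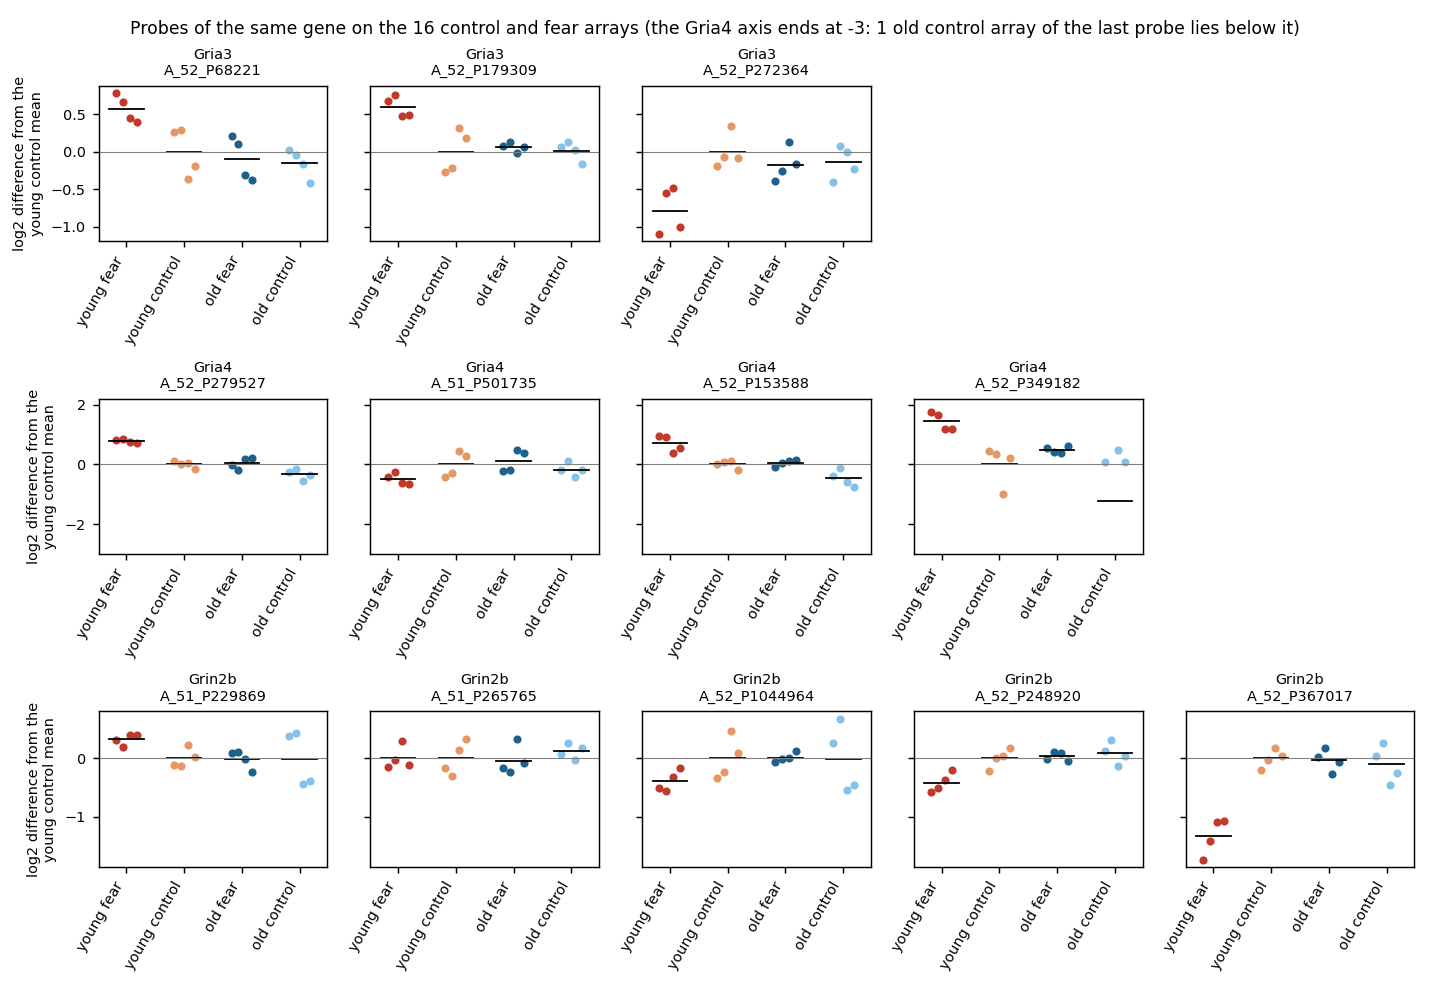
Log2 difference of each control and fear array from the young control mean, for the 3 probes of Gria3, the 4 of Gria4 and the 5 of Grin2b (rows); points are single mice, lines are group means, and the Gria4 axis ends at -3. Young fear arrays stand above the young control mean for 2 Gria3 probes and below it for the third, and the Grin2b probe A_52_P367017 is the one of its gene whose young fear arrays lie furthest below.

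Grin1 encodes GluN1, without which no NMDA receptor forms, and its single probe had the largest called rise of the family. Its levels were -0.29, -0.35, 0.34 and 0.35 in young fear mice, against -1.48, -1.48, -0.76 and -1.03 in young control mice. All young fear arrays lay above all young control arrays, and the within-slide differences ran from 1.11 to 1.38. The level was 2.30-fold higher (1.20 ± 0.19, adjusted p = 3.11e-05), and 0.0141 was the adjusted p with array pairs averaged. Across the quantile, median, normexp and deposited scalings the change stayed between 1.11 and 1.34.

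Grin2a encodes GluN2A, the subunit that comes to prevail in the mature forebrain. Its probe (chr16:9577909-9577968) read -2.64, -2.56, -2.37 and -2.16 in young fear mice, against -2.03, -1.88, -1.48 and -1.47 in young control mice. The groups did not overlap, and the level was 1.64-fold lower (-0.72 ± 0.20, adjusted p = 0.00737, or 0.0952 with array pairs averaged). In bulk tissue, fewer cells of a type and less RNA per cell cannot be told apart, here or for any other member.

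Grin2b encodes GluN2B, which gives slower currents, prevails early in life and binds the calcium-calmodulin kinase CaMKII. Its 5 probes differed among themselves. The most negative change of the family was that of A_52_P367017 (chr6:136121705-136121764), which read -4.46, -4.13, -3.82 and -3.80 in young fear mice, against -2.92, -2.75, -2.54 and -2.68 in young control mice. The groups did not overlap, the within-slide differences ran from -1.54 to -1.12, and the level was 2.52-fold lower (-1.33 ± 0.16, adjusted p = 1.02e-06).
The first probe, A_51_P229869 (chr6:136122961-136123020), lies 1256 bases from it and had the other sign. It read 1.80, 1.68, 1.89 and 1.88 in young fear mice, against 1.37, 1.35, 1.72 and 1.51 in young control mice. The groups overlapped by a single young control array, and the change of 0.33 ± 0.16 was not called (adjusted p = 0.102), though it passed with quantile normalization (0.47, adjusted p = 0.0247) and median scaling (0.47, adjusted p = 0.0288). The remaining 3 probes lie 438780 to 443148 bases from this pair, and none was called. Of these, A_52_P248920 came closest (-0.42 ± 0.17, adjusted p = 0.0515), A_52_P1044964 changed by -0.39 ± 0.24 (adjusted p = 0.193) and A_51_P265765 by 0.00 ± 0.18 (adjusted p = 0.988).

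Grin2c, Grin2d and Grin3a showed no called change in young fear mice. Grin2c, whose GluN2C protein is best known from cerebellar granule cells, averaged 2.17 ± 0.09 in young fear mice and 2.34 ± 0.16 in young control mice (SD, n = 4 each; change -0.17 ± 0.10 SE, adjusted p = 0.179). Grin2d, whose GluN2D protein occurs in interneurons, read -0.04, 0.05, 1.73 and 0.19 in young fear mice, against 1.45, 0.43, 0.16 and 1.97 in young control mice. High and low arrays occurred in both groups, its SE was the widest of the 10 first probes, and the change was -0.52 ± 0.44 (adjusted p = 0.340). Grin3a encodes GluN3A, which lowers the calcium flow of receptors that hold it. Its first probe (chr4:49674688-49674747) averaged 1.01 ± 0.16 in young fear mice and 0.89 ± 0.20 in young control mice (SD; change 0.12 ± 0.12 SE, adjusted p = 0.417), and the second, A_51_P146837, changed by -0.61 ± 0.30 (adjusted p = 0.101).

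All 10 calls passed when each of the 8 young arrays was left out in turn, and all 10 passed with array pairs as a random block. With array pairs averaged, the calls of Gria1, Grin2a and the first Gria3 probe were lost, as given above. Marker lists of other cell populations are set beside these changes, and their counts are to be read against the 44.6% of all probes called. Each marker gene was read from its probe of highest mean, whereas that share covers every tested probe, so the bases differ. Choroid plexus markers, from the epithelium that secretes cerebrospinal fluid, were lower in 12 of 12 tested genes, with a median log2 change of -3.39 and a summed level, linear and relative to the 75th percentile, of 10.2 to 16.1 in young fear mice, against 89.7 to 151 in young control mice. Thalamus markers were higher in 10 and lower in 1 of 14 (28.0 to 31.5 against 20.4 to 24.8 in summed level), and those of hippocampal excitatory neurons higher in 2 and lower in 4 of 15 (110 to 119 against 123 to 139). Astrocyte markers were higher in 2 and lower in 4 of 10, with sums of 71.7 to 78.5 in young fear mice, against 120 to 135 in young control mice. Called counts for the other lists were 2 higher and 3 lower of 10 for interneurons (124 to 140 in young fear mice, against 140 to 173 in young control mice), 4 and 3 of 10 for oligodendrocytes (161 to 175 against 132 to 142) and 2 and 3 of 10 for microglia (15.2 to 16.3 against 17.8 to 19). They were 3 and 3 of 10 for endothelial and mural cells (27.5 to 29.6 in young fear mice, against 26.5 to 35.7 in young control mice), 1 and 3 of 8 for neocortex (5.65 to 6.15 against 7.17 to 8.64) and 0 and 2 of 9 for striatum (10.9 to 13.1 against 14.9 to 16.8). Summed levels did not overlap between the groups for any of these lists except endothelial and mural cells and, at this rounding, interneurons. How often the sums of other gene sets do so was not counted. A sum weighs its brightest probes most. The median log2 change was 0.03 for astrocytes, 0.1 for microglia, 0.07 for hippocampal excitatory neurons, 0.17 for oligodendrocytes and 1.03 for thalamus. It was -0.17 for interneurons, -0.15 for endothelial and mural cells, -0.14 for neocortex and -0.31 for striatum, beside -0.27 for all probes. None of the tested markers was below background on every array of a control or fear group. Their part in the subunit changes was not tested.

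In old fear mice no subunit probe was called against old control mice. The count was 0 of 23 in limma, where 0.126% of all probes were called (0.111% higher and 0.0155% lower), and 5 of the 23 had an unadjusted p below 0.05, with a lowest adjusted p of 0.149. The log2 changes ran from -0.57 for Grin2d to 1.69 ± 0.80 for A_52_P349182 of Gria4, the probe with the array at -7.26 among the old controls. Grin1 read -1.36, -1.41, -0.94 and -1.22 in old fear mice, against -1.10, -0.51, -1.21 and -1.27 in old control mice. Those groups overlapped, with a change of -0.21 ± 0.19 (adjusted p = 0.646). The Grin2b probe A_52_P367017 read -2.70, -2.55, -2.99 and -2.79 in old fear mice, against -2.69, -2.46, -3.18 and -2.98 in old control mice, again with overlap (0.07 ± 0.16, adjusted p = 0.878).
Gria4 came closest. Its first probe read -0.33, -0.48, -0.11 and -0.08 in old fear mice, against -0.54, -0.46, -0.85 and -0.65 in old control mice, which overlapped by 1 array (0.37 ± 0.10, adjusted p = 0.157). The probe A_52_P153588 read -2.77, -2.66, -2.58 and -2.56 in old fear mice, against -3.10, -2.82, -3.28 and -3.45 in old control mice, with no overlap (0.52 ± 0.14, adjusted p = 0.149). In this comparison 6 of 14 thalamus markers were called higher (summed level 36.3 to 47.1 in old fear mice, against 24.2 to 29.4 in old control mice) and 0 of 12 choroid plexus markers were called (87.6 to 99.9 against 92.1 to 146).

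**Figure D3:**
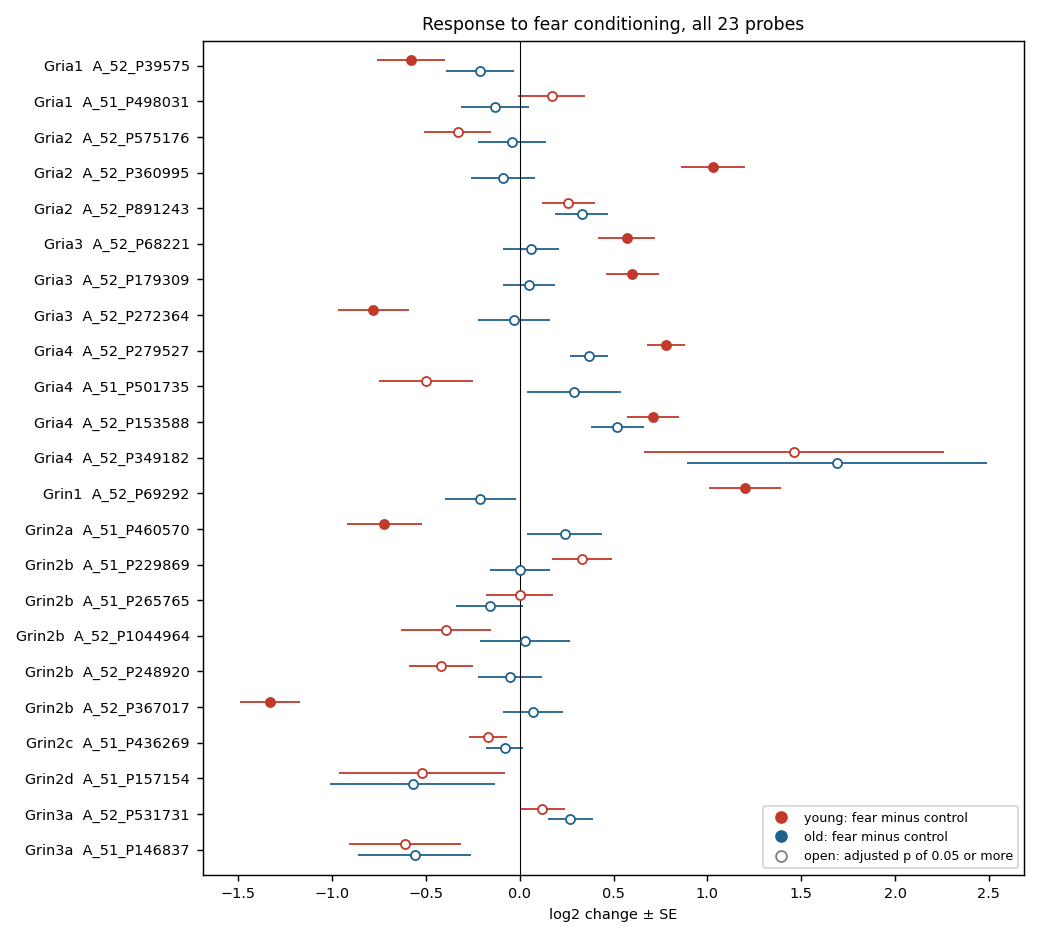
Log2 change ± SE of every member probe, fear minus control, in young mice (upper point of each pair) and old mice (lower point); filled points have an adjusted p below 0.05. The 10 filled points all belong to the young comparison, and the Grin1 and Grin2b A_52_P367017 points of the old comparison lie near 0.

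The difference between the 2 responses was tested as the old fear response minus the young one. Of the 23 probes, 3 were higher and 4 lower (30.4%), and 25.9% of all probes were called (14.3% higher and 11.5% lower). The share of higher calls on the array was 55.4%, against 44.3% with quantile normalization and 44.1% with median scaling. Grin1 differed by -1.41 ± 0.27 (adjusted p = 0.000556) and Grin2b A_52_P367017 by 1.40 ± 0.22 (adjusted p = 0.000109), the largest differences in each direction. The Gria2 probe A_52_P360995 differed by -1.12 ± 0.24 (adjusted p = 0.00139) and Grin2a by 0.95 ± 0.29 (adjusted p = 0.0186). Grin2a read -1.98, -1.79, -1.82 and -1.81 in old fear mice, against -1.69, -1.69, -2.48 and -2.48 in old control mice, so its old control arrays fell into the array pairs 1 and 2, and 3 and 4.
Smaller differences passed for Gria4 A_52_P279527 (-0.41 ± 0.15, adjusted p = 0.0473), Gria3 A_52_P179309 (-0.54 ± 0.20, adjusted p = 0.0499) and Gria3 A_52_P272364 (0.75 ± 0.27, adjusted p = 0.0465). These 3 calls were unsteady: of the 16 fits that each left out 1 array, they passed in 5, 4 and 6. Grin1, Grin2a, Grin2b A_52_P367017 and Gria2 A_52_P360995 passed in all 16. With array pairs averaged only the Grin2b probe passed (adjusted p = 0.0396), and Grin1 (0.0662), Gria2 A_52_P360995 (0.0665) and Grin2a (0.193) did not. With array pairs as a random block, Grin2b (0.00102), Grin1 (0.00287) and Gria2 (0.0105) passed. Choroid plexus markers differed in the same test in 11 of 12 genes, all higher, with a median of 2.93, and their part was not tested.

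Age alone gave no called subunit. Old control mice were set against young control mice with 0 of 23 probes called by limma and 0.557% of all probes called (0.359% higher and 0.199% lower), and 4 of the 23 had an unadjusted p below 0.05. The lowest adjusted p was 0.187, for the first Grin3a probe, whose levels were 0.40, 0.67, 0.46 and 0.44 in old control mice, against 1.00, 0.94, 1.01 and 0.59 in young control mice. Those groups overlapped by 1 young array (-0.39 ± 0.12). Gria4 had changes of -0.32 ± 0.10 (adjusted p = 0.231) and -0.47 ± 0.14 (adjusted p = 0.196) for A_52_P279527 and A_52_P153588, and Grin1 had 0.17 ± 0.19 (adjusted p = 0.894).

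After training, old fear mice differed from young fear mice in 12 of 23 probes (52.2%), 6 higher and 6 lower, with 39.9% of all probes called (22.9% higher and 17% lower). Of all calls, 57.4% were higher, against 46.2% with quantile normalization and 48.3% with median scaling. Grin1 was 2.37-fold lower (-1.24 ± 0.19, adjusted p = 2.16e-05) and Gria4 A_52_P279527 1.66-fold lower (-0.73 ± 0.10, adjusted p = 1.02e-05), both without overlap. Grin2b A_52_P367017 was 2.45-fold higher (1.29 ± 0.16, adjusted p = 1.55e-06). These 3 probes passed with array pairs averaged, where 5 of 23 were called. The share of all probes called in that fit is not given here. The calls lost there were those of Gria1 A_52_P39575 (adjusted p = 0.137), Gria3 A_52_P68221 (0.0745) and A_52_P179309 (0.0774), Gria4 A_52_P153588 (0.0513), Grin2a (0.179), Grin2b A_52_P248920 (0.138) and Grin2c (0.222). Of the 8 fits that each left out 1 array, the calls of Gria1 A_52_P39575 and Grin2c passed in 4 each, Grin2a in 3, Grin2b A_52_P248920 in 1 and Gria3 A_52_P272364 in 6. The comparison shares its young fear arrays with the young comparison above, so the 2 are not independent. Choroid plexus markers were called higher in 11 of 12 genes here, with a median of 3.18, and thalamus markers higher in 3 and lower in 2 of 14, with a median of 0.18; their part was not tested.

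The groups without association shed no called difference between themselves. Context mice against shock-context mice gave 0 of 23 called probes in limma, with 0% of all probes called (0% in either direction), although 2187 of all probes and 3 of the 23 had an unadjusted p below 0.05. These 3 were Grin2a, Gria3 A_52_P179309 and Gria2 A_52_P360995. Grin2a read -0.58, -0.54, -0.60 and -0.43 in context mice, against -0.79, -0.95, -0.91 and -1.73 in shock-context mice. The groups did not overlap, and the change was 0.56 ± 0.20 (adjusted p = 0.880). For Grin1 the levels were -0.75, -0.85, -0.86 and -0.74 in context mice, against -0.83, -0.94, -0.86 and -1.01 in shock-context mice (0.11 ± 0.19, adjusted p = 0.997).

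Comparisons between the scan runs called most probes of the array, and there the group and the run cannot be told apart. Against young control mice, context mice differed in 15 of 23 probes (10 higher, 5 lower), where 68.8% of all probes were called (18.4% higher and 50.4% lower), and shock-context mice in 12 of 23 (8 higher, 4 lower), where 65.4% were (16.1% higher and 49.3% lower). Young fear mice differed from context mice in 20 of 23 (7 higher, 13 lower), where 65.9% of all probes were called (46.1% higher and 19.8% lower). They differed from shock-context mice in 15 of 23 (6 higher, 9 lower), where 64.9% were (46% higher and 18.9% lower). The median change of all probes was -0.36, -0.33, 0.31 and 0.31 in these 4 comparisons, and the share of higher calls was 26.8, 24.6, 70.0 and 70.9%, against 47.1, 48.1, 55.9 and 54.6% with quantile normalization and 46.8, 48.8, 58.1 and 55.9% with median scaling.
Grin1 was higher in young fear mice than in context mice (0.81 ± 0.19, adjusted p = 0.000863) and than in shock-context mice (0.92 ± 0.19, adjusted p = 0.000288), beside the 1.20 against young control mice. For Gria4 A_52_P279527 the same 3 values were 1.06 ± 0.10, 0.91 ± 0.10 and 0.78 ± 0.10. Grin2b A_52_P367017, called lower against young control mice, stood at -0.37 ± 0.16 against context mice (adjusted p = 0.0469, or 0.193 with array pairs averaged) and at -0.23 ± 0.16 against shock-context mice (adjusted p = 0.211).
The second Grin3a probe, A_51_P146837, was not well above background on any of the 8 arrays of the second run. With a floor set for those arrays, it was 3.96-fold higher in young fear mice than in context mice and 3.48-fold higher than in shock-context mice. Young control mice lay 6.03-fold above context mice and 5.31-fold above shock-context mice. Each value sets the bright group's mean against, on each dim array, the lowest signal among probes well above background. This floor is not the detection limit of this probe, so the values are not strict lower bounds. Grin2d read 4.27, 2.55, 4.13 and 2.60 in context mice and 2.91, 2.68, 3.04 and 2.85 in shock-context mice, with 1.45, 0.43, 0.16 and 1.97 in young control mice. Both second-run groups lay above the controls without overlap, by 2.39 ± 0.44 and 1.87 ± 0.44.

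Ordered by group mean, the first probes of Grin1, Gria3 and Gria4 had young fear highest and set apart from the next group by a gap between arrays, while the 5 groups below overlapped neighbour by neighbour. For Grin1 the means were 0.01 in young fear, -0.80 in context, -0.91 in shock-context, -1.02 in old control, -1.19 in young control and -1.23 in old fear mice. Young fear stood lowest for Gria1 (5.57, with 6.31 in the highest group, old control), Gria2 (4.57, with 5.01 in context), Grin2a (-2.43, with -0.54 in context) and Grin2d (0.48, with 3.39 in context). Neighbours overlapped at each step for Gria1, Gria2, Grin2c and the first Grin3a probe. Grin2c ran from 2.54 in old control to 1.85 in context mice, and Grin3a from 1.01 in young fear to 0.50 in old control mice. For Grin2b A_51_P229869 the 4 first-run groups (1.48 to 1.81) lay above the 2 second-run groups (0.89 and 0.90). Other probes of Gria3 and Gria4 gave other orders. Gria3 A_52_P272364 and Gria4 A_51_P501735 had young fear lowest, and Gria3 A_52_P179309 had context and shock-context above it. Gria4 A_52_P349182 had young fear highest with a gap, and A_52_P153588 highest with overlap. The share of all probes with young fear set apart in this way was not counted.

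Genes that act on these receptors were read from 4 lists, chosen with earlier results of these data known, and their counts in young fear mice stand against 44.6% of all probes called (17.2% higher and 27.5% lower). Each listed gene was read from its probe of highest mean, whereas that share covers every tested probe, so the bases differ. Auxiliary and biogenesis proteins of the AMPA receptor were called higher in 6 and lower in 3 of 18 tested genes of young fear mice (50%), with a median change of 0.07, against -0.27 for all probes. The members of smallest p were Cacng3 (1.32 ± 0.15) and Cacng8 (1.23 ± 0.15), transmembrane proteins that carry AMPA receptors to the synapse and slow their closing, Olfm2 (1.01 ± 0.18), and Cnih3 (0.35 ± 0.10), a cornichon that exports the receptor from the endoplasmic reticulum. Trafficking and clustering genes were higher in 4 and lower in 3 of 16 (43.8%, near the share of all probes), with a median of 0.07. Among them Grip1, a scaffold that binds the tails of GluA2 and GluA3, was lower (-1.11 ± 0.18), as was Akap5, the anchor of kinase A (-0.62 ± 0.14), and the synaptic adhesion genes Lrrtm2 (0.69 ± 0.12) and Lrrtm4 (0.41 ± 0.09) were higher.
Kainate, delta and other ionotropic subunits were higher in 4 and lower in 3 of 10 (70%), with a median of 0.11. Grid1, a delta subunit, rose by 0.83 ± 0.16, Grik2 by 0.45 ± 0.12 and Neto1, an auxiliary of kainate receptors, by 0.87 ± 0.23, and Grik4 stood at -0.50 ± 0.12. Partners of the NMDA receptor and suppliers of its co-agonists were higher in 7 and lower in 5 of 21 (57.1%), with a median of 0.09. The 4 of smallest p were all lower: Lin7b (-1.07 ± 0.11) and Apba1 (-1.10 ± 0.19), scaffolds of the motor complex that carries GluN2B, and Slc7a10 (-0.70 ± 0.09), a carrier of glycine and D-serine, and Psph (-0.81 ± 0.12), the last enzyme of serine synthesis. In old fear mice, where 0.126% of all probes were called, 0 genes of any of the 4 lists were called. In the difference between the responses, where 25.9% of all probes were called, the auxiliary list had 0 higher and 4 lower of 18 (22.2%), among them Cacng8 (-1.46 ± 0.22) and Cacng3 (-1.18 ± 0.21). Trafficking and clustering genes had 2 higher and 3 lower of 16 (31.2%), kainate, delta and other subunits 2 and 1 of 10 (30%), and NMDA receptor partners 4 and 4 of 21 (38.1%).

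**Figure D4:**
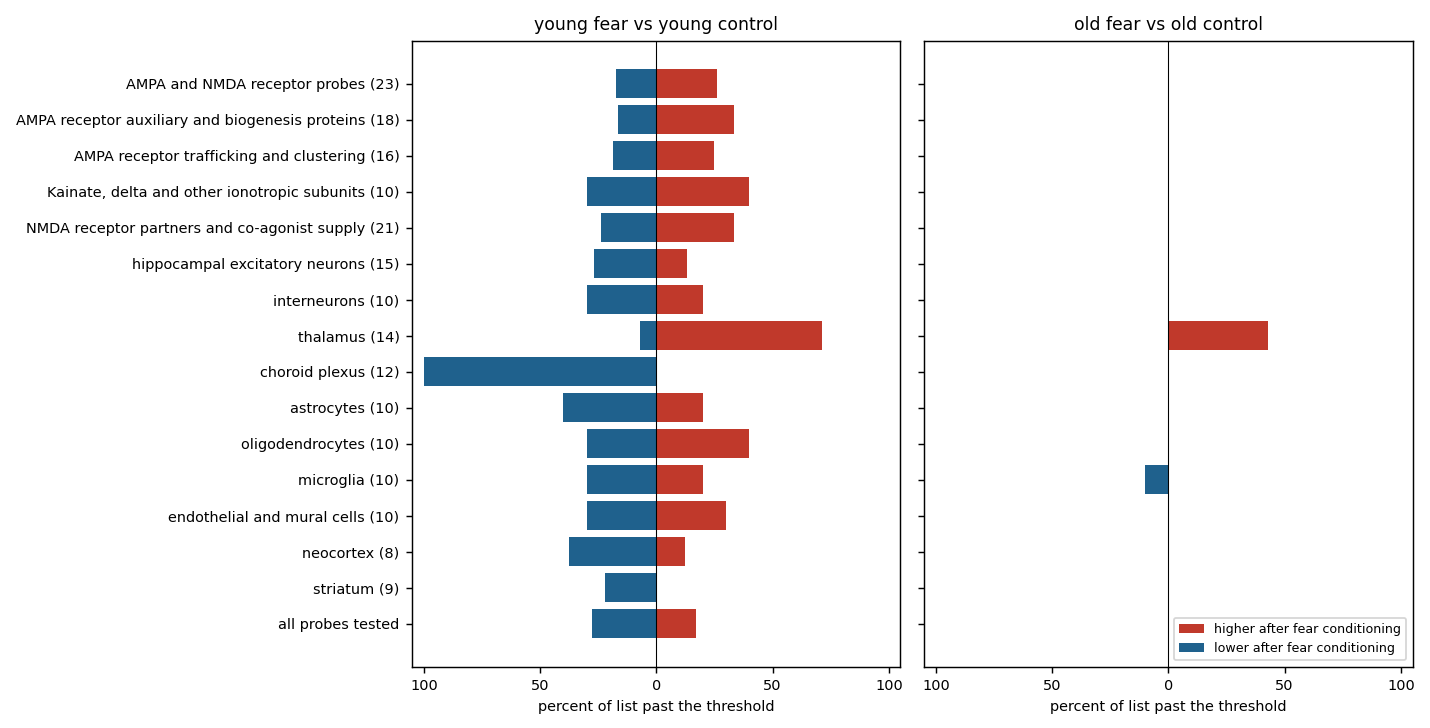
Percent of each list past the threshold, higher (right of 0) or lower (left of 0) after fear conditioning, in young mice (left panel) and old mice (right panel), with the number of probes or genes tested in brackets and all probes in the bottom bar. In young mice the receptor probes were higher in 6 and lower in 4 of 23, choroid plexus markers lower in 12 of 12 and thalamus markers higher in 10 of 14; in old mice calls were made among thalamus and microglia markers.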

How the data were processed

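Each array received the Cy3-labelled product of 600 ng of hippocampal RNA with an integrity number of 9 to 10, per the labels' protocols. Per the file headers, the authors extracted signal intensity with Agilent Feature Extraction 9.5.3.1, which subtracted background and detrended each array spatially, and marked dim and outlying spots by 0/1 values. A deposited table of the authors' values, read as log2, served as an alternative. Its column medians were all 8.57, and against log2 of the processed signal of the same array its columns had correlations of 0.962 to 0.976 across probes and slopes of 0.626 to 0.766, so it runs in the same direction with a compressed scale; its centring is not labelled.

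The 75th percentile of log2 processed signal was subtracted per array. Control spots were dropped, outlier spots set to missing, and spots of a probe averaged. A probe entered the fit if 4 or more of the 24 arrays showed it well above background (38762 of 41174). One model of all 6 groups was used (limma 3.58.1 in R 4.3.3 with statmod 1.5.0; lmFit, eBayes, 18 residual degrees of freedom) for 10 two-sided comparisons, with Benjamini-Hochberg adjustment over all probes and a threshold of 0.05. Its code was tested on simulated data. SE is that of the fit.

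The members and lists were chosen with earlier results of these data known. All 10 genes and 23 probes are described; the first probe of a gene has the highest mean. From each list at most 4 genes of smallest adjusted p are named. The genes nearest to a member are the 2 with the smallest root mean square difference of centred levels over the 16 control and fear arrays.

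In the control and fear groups the replicate number follows the slide. Deviations from group means correlated above 0.1 in 15 of 24 same-numbered pairs (range -0.42 to 0.65), so many arrays of a slide shared deviations. The main fit has no term for slide or replicate number, and blocks of each are among the alternatives. Alternatives were quantile normalization, median scaling, normexp (offset 50), the deposited values, no filter, a strict filter, outlier spots kept, 1 probe a gene, slide blocks (fixed, random), the replicate block, a trended robust eBayes, the compared arrays alone, array pairs averaged, and each array left out. Array pairs as a random block were added after seeing the data.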

Additional observations from a re-analysis of the deposited data

Results flagged for a closer look

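Of 138 groups of 4 arrays, 1 for each probe and group, 9 held an array whose gap to the nearest of the others exceeded the 95% limit for its share of the group's range, and chance alone gives about 1 in 20. Gria4 A_52_P349182 had 3 of them: old control array 2 at -7.26 with the others at -1.72 to -1.30, young control array 3 at -2.79 with the others at -1.57 to -1.34, and shock-context array 2 at -0.79 with the others at -0.96 to -0.93. The first of these was not well above background. For Grin2d, young fear array 3 stood at 1.73 with the others at -0.04 to 0.19. Grin3a A_52_P531731 had young control array 4 at 0.59 with the others at 0.94 to 1.01. Gria2 A_52_P575176 had shock-context array 2 at 5.01 with the others at 4.88 to 4.90, and Gria2 A_52_P891243 had old control array 4 at -2.65 with the others at -2.23 to -2.20. Grin2a had old fear array 1 at -1.98 with the others at -1.82 to -1.79, and Grin2b A_51_P265765 had context array 3 at -1.67 with the others at -1.37 to -1.32.

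The response to fear conditioning differed between old and young mice for 7 of 23 probes (30.4%) in the limma test of that difference, old minus young. In that test 25.9% of all probes were called. The difference was -1.41 for Grin1 (adjusted p = 0.000556), 1.40 for Grin2b A_52_P367017 (0.000109), -1.12 for Gria2 A_52_P360995 (0.00139), 0.95 for Grin2a (0.0186), 0.75 for Gria3 A_52_P272364 (0.0465), -0.54 for Gria3 A_52_P179309 (0.0499) and -0.41 for Gria4 A_52_P279527 (0.0473). The calls of both Gria3 probes and of the Gria4 probe were unsteady when single arrays were left out. With array pairs averaged only the Grin2b probe passed.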

How the results depend on the processing

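Counts of called probes moved by more than 1.5 times as follows. The share of all probes called under each alternative of this section is not given. A lower count of members therefore cannot be told from fewer calls over the whole array. With 1 probe a gene (10 tested members), 5 were called in young fear against young control, 3 in old minus young response, 6 in old fear against young fear, 5 in context against control, 4 in shock-context against control, 8 in young fear against context and 6 in young fear against shock-context. With array pairs averaged, the counts were 1 in old minus young response, 5 in old fear against young fear, 6 in shock-context against control and 13 in young fear against context. With array pairs as a random block they were 3 in old minus young response and 7 in old fear against young fear, and with no filter on dim probes 4 in old minus young response. Leaving out single arrays gave 4 to 8 in old minus young response, with 4 without old control array 1, young fear array 1 or old fear array 2.

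With the replicate number as a block, which in the control and fear groups follows the slide, 10 probes were called in young fear against young control. The counts were 6 in old minus young response and 11 in old fear against young fear. All lay within 1.5 times of the reported counts, as in the other comparisons.

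Of 100 log2 changes of first probes, 30 turned sign under an alternative, 3 of them called ones: Gria1 in young fear against control, Gria4 in context against control and Grin2c in shock-context against control. In young fear against control the turned values were 0.04 for Gria1 (deposited values), 0.07 and 0.02 for Gria2 (quantile, normexp) and 0.02 for Grin2c (quantile). In old fear against control they were 0.16 and 0.20 for Gria1 and 0.14 and 0.16 for Gria2 (normexp, deposited), 0.05 and 0.03 for Gria2 (quantile, median scaling), -0.07 and -0.04 for Gria3 (normexp, deposited), and 0.01 and 0.06 for Grin2b (quantile, median scaling). For the difference of responses they were -0.02 for Gria2 (quantile) and -0.08, -0.02 and -0.03 for Grin2c (quantile, normexp, deposited). Old against young control turned to -0.01 for Gria1 (deposited) and to -0.06 and -0.08 for Gria2 (normexp, deposited), and old fear against young fear to 0.00 for Gria2 (quantile).

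In context against shock-context, quantile, normexp and deposited values gave 0.05, 0.04 and 0.01 for Gria1 and 0.02, 0.06 and 0.06 for Grin2b, and quantile gave 0.01 for Grin3a. In context against control, Gria1 turned to 0.25, 0.02, 0.38 and 0.30 (quantile, median scaling, normexp, deposited), and median scaling gave 0.07 for Gria4 and 0.24 for Grin3a. In shock-context against control, Gria1 turned to 0.20, 0.13, 0.35 and 0.29 (same order), median scaling gave 0.27 for Gria3, 0.25 for Gria4, 0.01 for Grin2c and 0.29 for Grin3a, and normexp and deposited values gave 0.03 and 0.05 for Gria4. In young fear against shock-context, median scaling gave -0.04 for Grin2c and -0.03 for Grin3a. The causes were not tested.

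With single arrays left out, further uncalled changes near 0 took both signs. In old fear against control they ran from -0.31 to 0.01 for Gria1, -0.15 to 0.19 for Gria2, -0.04 to 0.16 for Gria3 and -0.15 to 0.14 for Grin2b, and the difference of responses from -0.38 to 0.36 for Grin2d. In old against young control they ran from -0.05 to 0.26 for Gria1, -0.17 to 0.17 for Gria2, 0.00 to 0.31 for Grin1 and -0.15 to 0.14 for Grin2b. They ran from -0.07 to 0.03 for Grin2b and -0.04 to 0.03 for Grin3a in context against shock-context, -0.07 to 0.15 for Gria3 in context against control, and -0.04 to 0.13 for Gria2 in shock-context against control.

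Signal over background limits Grin3a A_51_P146837 in the second run and Gria4 A_52_P349182 on 1 array, and 4 arrays a group limit all calls.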

Other observations

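Over the 16 control and fear arrays, each member's first probe was set beside 19091 genes by the root mean square difference of centred log2 levels, as a description. Nearest to Grin1 were Dlg5 (0.131) and Fmnl1 (0.134), to Gria1 Dgkg (0.135) and Ruvbl1 (0.137), to Gria2 Dnajc1 (0.123) and Rragd (0.127), to Gria3 Rabgef1 (0.115) and Ywhag (0.118), and to Gria4 Nars2 (0.122) and Tjp1 (0.132). Nearest to Grin2a were Malt1 (0.147) and Odz2 (0.152), to Grin2b Adcy9 (0.122) and Rab3gap1 (0.126), to Grin2c Nup93 (0.0738) and Mnt (0.097), and to Grin3a Zfp451 (0.115) and Enpep (0.116). Nearest to Grin2d were Synpo (0.171) and Arid5b (0.236), the largest distances of the 10 members. Its own levels also varied most, with a root mean square of 0.668 about their mean, against 0.17 for Grin2c, the smallest. Distances were not scaled by this spread, so they do not rank the members by likeness. The Synpo and Arid5b probes hold 68.3 and 55% G and C beside the 81.7% of the Grin2d probe.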
